A study of Mus musculus with 2 samples.

Results

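Dense clusters of CTCF peaks were examined in mouse limbs of embryonic day 14.5. The clusters were selected on the summit positions of the called peaks themselves. On chromosomes 1 to 19, consecutive summits of the optimal peak list at most 5 kb apart were joined into chains, and the peaks of chains with 4 or more summits were taken. These were 2945 peaks in 652 chains, 6.03% of the 48806 peaks on those chromosomes. The whole list held 49970 peaks. The peaks were compared with 29676 single peaks, which had no other summit within 5 kb, and in places with 4605 peaks in 1535 chains of 3 and 11580 peaks in 5790 chains of 2. The study holds 2 CTCF chromatin immunoprecipitation libraries, replicate 1 and replicate 2, and 1 group. Both were made from limbs of the B6NCrl strain, with no allele or treatment named in the labels, from a single pool of limbs that several dissections of male and female embryos had provided, ground to powder before use. The spread between the libraries may therefore be technical, and the cell types of the limb cannot be told apart in these lists. A list of peaks from 1 antibody holds no expression values, so the tissue label was not checked against marker genes.

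CTCF is a zinc finger protein that binds a long, directional DNA motif. Cohesin extrudes loops of chromatin and is halted by bound CTCF, best when the motif points towards the incoming cohesin, so that loop anchors often carry motifs pointing at each other. CTCF sites also act as insulators between enhancers and promoters, and several sites in a row are known at boundaries of topological domains and in gene clusters such as the clustered protocadherins and the immunoglobulin heavy chain locus.

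The largest chain had 11 summits and lay on chromosome 10 in intergenic sequence, 26175 bp upstream of the start site of Gnaz, which encodes the alpha subunit of a G protein. The nearest gene body was that of Rsph14, 16474 bp from the last summit. The windows that follow are the 10 of the chain's 11 summits that carried a CTCF motif, shown to let the motifs of one cluster be compared. Each is 50 bp of the GRCm38.p6 reference (mm10) in RefSeq's sequence, read 5′ to 3′ on the strand of the motif, and capitals mark the 20 bp motif.
Gnaz chain summit 1, reverse strand, chr10:74921034-74921083: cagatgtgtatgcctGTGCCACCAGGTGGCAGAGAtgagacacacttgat
Gnaz chain summit 2, forward strand, chr10:74923008-74923057: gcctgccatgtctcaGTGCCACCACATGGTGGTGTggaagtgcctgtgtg
Gnaz chain summit 3, reverse strand, chr10:74925418-74925467: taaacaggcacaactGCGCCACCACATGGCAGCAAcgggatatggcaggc
Gnaz chain summit 5, reverse strand, chr10:74929713-74929762: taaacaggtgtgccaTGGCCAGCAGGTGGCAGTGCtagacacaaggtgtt
Gnaz chain summit 6, forward strand, chr10:74933675-74933724: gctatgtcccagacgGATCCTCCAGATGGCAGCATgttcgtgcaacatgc
Gnaz chain summit 7, forward strand, chr10:74935190-74935239: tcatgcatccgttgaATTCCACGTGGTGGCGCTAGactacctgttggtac
Gnaz chain summit 8, forward strand, chr10:74937156-74937205: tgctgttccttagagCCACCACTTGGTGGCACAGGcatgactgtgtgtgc
Gnaz chain summit 9, forward strand, chr10:74938603-74938652: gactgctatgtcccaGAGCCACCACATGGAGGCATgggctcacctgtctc
Gnaz chain summit 10, forward strand, chr10:74939462-74939511: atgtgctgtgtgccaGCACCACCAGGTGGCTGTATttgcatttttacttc
Gnaz chain summit 11, reverse strand, chr10:74940964-74941013: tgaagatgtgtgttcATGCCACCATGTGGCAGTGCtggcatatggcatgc

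The second largest chain had 10 summits on chromosome 12 between Tmem121, a gene for a transmembrane protein, and Igha, the constant gene of the IgA heavy chain. Of these, 9 carried a motif, and all 9 motifs lay on the forward strand. The windows are shown because the chain was the largest with motifs on 1 strand alone. Igha lies on the reverse strand, and its 3′ end was 30418 bp beyond the last summit. This side of the heavy chain locus is known for a row of CTCF sites next to its 3′ regulatory region.
Igha chain summit 1, forward strand, chr12:113216100-113216149: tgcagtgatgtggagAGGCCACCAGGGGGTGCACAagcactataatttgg
Igha chain summit 2, forward strand, chr12:113217444-113217493: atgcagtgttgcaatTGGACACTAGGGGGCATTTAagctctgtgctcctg
Igha chain summit 3, forward strand, chr12:113218068-113218117: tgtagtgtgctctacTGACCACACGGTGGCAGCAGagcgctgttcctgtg
Igha chain summit 4, forward strand, chr12:113220035-113220084: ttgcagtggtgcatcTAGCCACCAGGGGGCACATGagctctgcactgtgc
Igha chain summit 5, forward strand, chr12:113220668-113220717: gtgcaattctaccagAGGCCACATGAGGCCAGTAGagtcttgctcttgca
Igha chain summit 6, forward strand, chr12:113221390-113221439: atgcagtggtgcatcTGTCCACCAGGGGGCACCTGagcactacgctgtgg
Igha chain summit 7, forward strand, chr12:113222198-113222247: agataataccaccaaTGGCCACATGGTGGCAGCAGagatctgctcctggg
Igha chain summit 9, forward strand, chr12:113222935-113222984: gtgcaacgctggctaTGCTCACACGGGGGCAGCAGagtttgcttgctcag
Igha chain summit 10, forward strand, chr12:113224378-113224427: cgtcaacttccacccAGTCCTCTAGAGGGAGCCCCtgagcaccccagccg

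The third set comes from the chain with the highest median signal, 4 summits on chromosome 6 between Fbln2, which encodes the matrix protein fibulin 2, and Wnt7a, the ligand of the dorsal limb ectoderm. The first summit lay 5234 bp past the end of Fbln2, and the last was 77156 bp from the 3′ end of Wnt7a. The windows show the motifs behind the order of strands described with its signals.
Fbln2 chain summit 1, reverse strand, chr6:91277747-91277796: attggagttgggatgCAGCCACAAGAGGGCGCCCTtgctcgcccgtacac
Fbln2 chain summit 2, reverse strand, chr6:91281383-91281432: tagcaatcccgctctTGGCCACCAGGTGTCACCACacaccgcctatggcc
Fbln2 chain summit 3, forward strand, chr6:91285586-91285635: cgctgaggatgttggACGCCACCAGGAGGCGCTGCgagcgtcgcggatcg
Fbln2 chain summit 4, forward strand, chr6:91286781-91286830: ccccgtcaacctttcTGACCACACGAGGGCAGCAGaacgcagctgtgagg

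Within each set the motifs were alike at few positions. In the Gnaz chain, 5 of the 20 motif positions had the same base in all 10 windows, in the Igha chain 4 in all 9, and in the Fbln2 chain 7 in all 4. A pair of motifs shared a median of 12 of 20 bases in each of the 3 chains. The most alike pair shared 16 at Gnaz, 18 at Igha and 13 at Fbln2. The 80 bp beside the motif, lined up on its strand, had a median identity of 27.5% over 45 pairs of summits in the Gnaz chain and 30.6% over 36 pairs in the Igha chain. Identity reached 45% in 2 of the 45 pairs of the Gnaz chain and 3 of the 36 pairs of the Igha chain. Among neighbouring motif-bearing pairs of all chains of 4 or more, 1.74% reached it. Over the 398 chains with at least 4 motifs, the median identity was 26.3%, lower than in both of these chains.

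In the Gnaz chain the signals ran from 16.9 to 316. Signal here is the authors' value for a peak, scaled within its list by a step the sources do not give, and the pooled signal of the optimal list is meant where no replicate is named. In order of position the summits had pooled signals of 316, 138, 137, 16.9, 84.3, 27.2, 71.2, 209, 24.0, 64.7 and 24.1. The first summit had a signal of 164 in replicate 1 and 149.8 in replicate 2. The weakest, the fourth and the one without a motif, had 9.64 in replicate 1 and 6.98 in replicate 2. The strong summits were the first 3 and the eighth, and weak ones lay between and after them. The chain spanned 19909 bp, had 6 forward and 4 reverse motifs, and had no summit in a repeat.

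The Igha chain was shorter, at 8293 bp, and stronger. Its 10 summits had pooled signals of 199.5, 103, 321, 146, 194, 109, 192, 78.5, 129 and 44.0, a median of 138. The strongest, the third, had 166 in replicate 1 and 154 in replicate 2, and the weakest, the last, had 27.1 in replicate 1 and 15.6 in replicate 2. All 10 summits were among the strongest peaks of both replicates, that is, within 100 bp of a summit in the strongest 49970 peaks of each replicate list. The eighth summit, the only one of the chain without a motif, lay 6323 bp from the first, and the seventh 6122 bp.

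In the Fbln2 chain all 4 summits were strong. They had pooled signals of 282, 415, 313 and 403, with 144, 214, 163 and 210.3 in replicate 1 and 137, 201, 148 and 193 in replicate 2. The first 2 motifs were reverse and the last 2 forward, so that the inner pair pointed away from each other across 4202 bp.

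**Figure D1:**
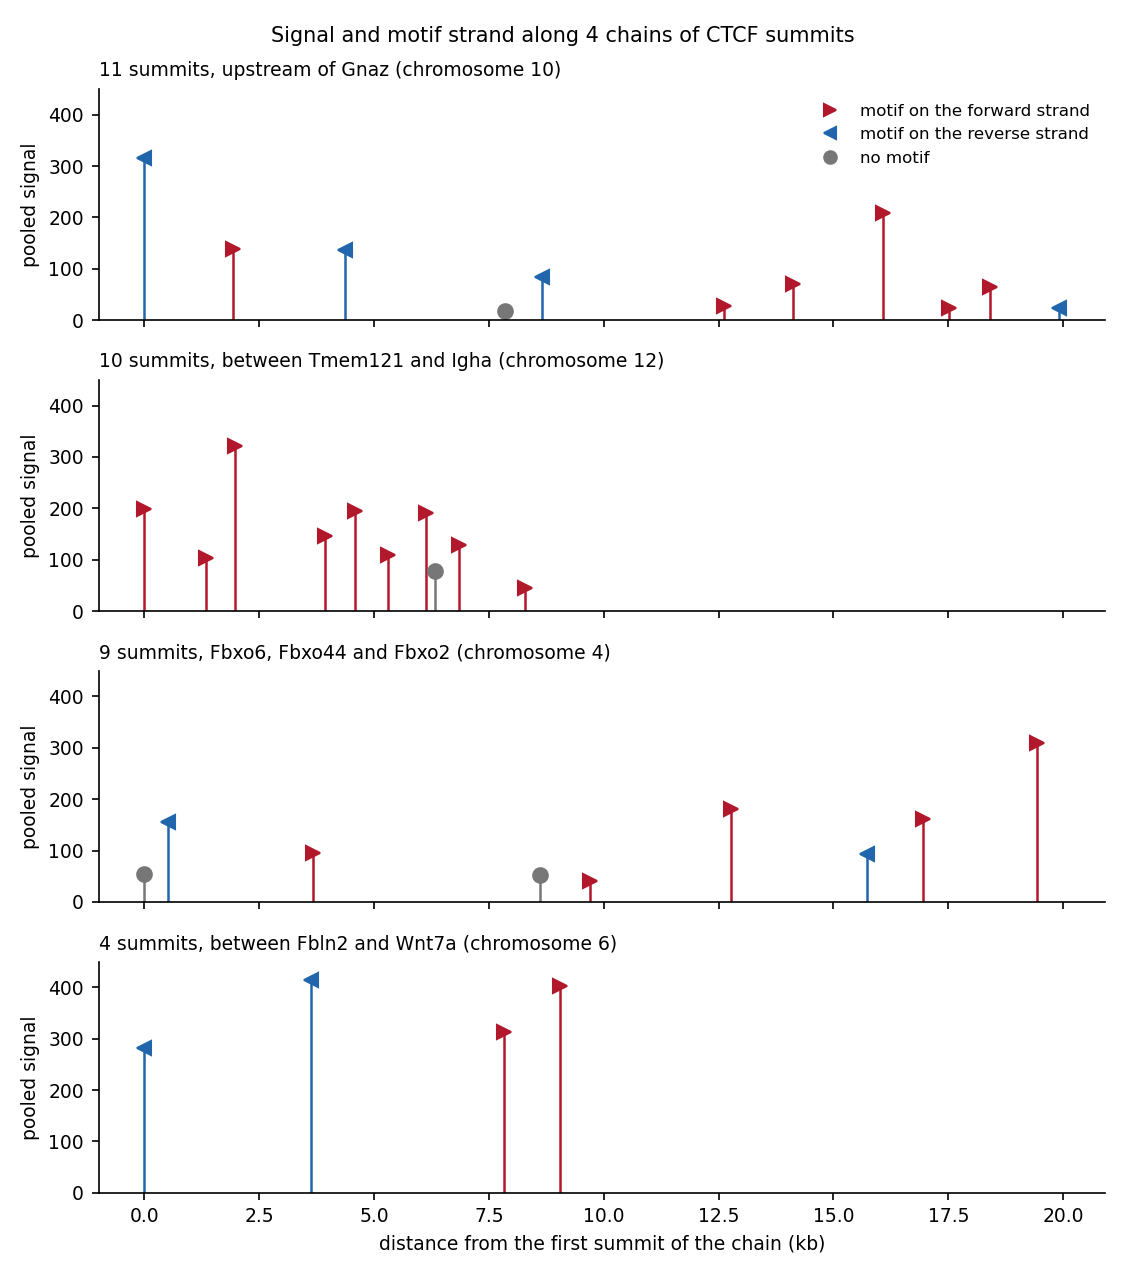
Pooled signal of each summit (vertical axis) against its distance in kb from the first summit of the chain (horizontal axis), for the chains at Gnaz, Igha, the 3 F-box genes and Fbln2. Right-pointing red markers are motifs on the forward strand, left-pointing blue markers motifs on the reverse strand and grey circles summits without a motif. The Igha chain has 9 forward motifs and no reverse motif, and the 4 summits at Fbln2 all lie above 280.

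Chains were small and compact. Of the 652, 427 had 4 summits, 148 had 5, 55 had 6, 16 had 7, 2 had 8, 2 had 9, 1 had 10 and 1 had 11. They spanned 1232 to 25138 bp with a median of 7710.5 bp, and 5.12 Mb or 0.208% of the length of the autosomes in all. Neighbouring summits within them were 199 to 4999 bp apart, with a median of 2053 bp, and 530 of 2293 gaps (23.1%) were under 1 kb. The limits of the rule cut through a continuous range. Chains of exactly 4 had a median signal of 64.6 and chains of 3 one of 61.5, and the median number of genes within 100 kb was 4 in chains of exactly 4 and 3 in chains of 3, while 144 chains had a gap of more than 4500 bp inside them and 90 chains of 3 had their next summit within 5500 bp.

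The chains next in size lay at genes. A chain of 9 summits on chromosome 4 ran over Fbxo6, Fbxo44 and Fbxo2, neighbouring genes for F-box proteins, the subunits by which ubiquitin ligases choose their substrates. Its pooled signals ran from 41.3 to 309, all 9 summits were among the strongest peaks of both replicates, and 4 of the 9 were within 1 kb of a transcription start site (TSS). The other chain of 9 was the longest of all at 25138 bp, on chromosome 10. It ran over Eef2, the translation elongation factor, Dapk3, a death-associated protein kinase, 4930442H23Rik and Nmrk2, a nicotinamide riboside kinase. Its 2 strongest summits, with pooled signals of 298 and 278, lay 3371 and 1429 bp upstream of Eef2, and 6 of its 9 summits were among the strongest peaks of both replicates.

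The chains of 8 lay at Fos, which encodes a subunit of the AP-1 transcription factor, and at Prr7 and Dbn1, of which Dbn1 encodes the actin-binding protein drebrin. At Fos the 3 strong summits, with pooled signals of 267, 193 and 209, were 14046, 18440 and 23043 bp downstream of the start site, and the summit at the start site itself had 41.7. At Prr7 and Dbn1, 1 summit of 265 inside Prr7 stood over 7 others of at most 66.5. The strong sites of the Fos chain were therefore outside the gene, and that of the other chain inside one.

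Of the 16 chains of 7, the 6 with the largest summed pooled signal are named, so their signals were selected to be high. They were at Scarb1, a receptor for high density lipoprotein, at Tmem189 and Cebpb, and at Rtn2 and Fosb. The others were at 2900026A02Rik, at Dnajc11 and Thap3, and at Nemp1 and Nab2. In the chain at Tmem189, 6 of the 7 summits lay in the introns of that gene and the last was 235 bp upstream of Cebpb, a transcription factor gene that lies on the opposite strand. Its signals of 109, 57.1, 48.6, 365, 109, 430.1 and 77.1 were all of summits among the strongest peaks of both replicates, and its motifs were 4 on the reverse strand followed by 3 on the forward strand. The chain at Fosb, a further AP-1 gene, had 4 motifs among 7 summits, and those at its promoter and just inside the gene, with pooled signals of 101 and 38.6, had none. The chain at Scarb1 had 3 summits above 340, each with a motif on the reverse strand. These 3 lay outside Scarb1, within Gm32585, a gene for a long noncoding RNA. Only the last summit of the chain, with 118, was inside Scarb1.

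By median signal, the chain at Fbln2 with 358 was followed by chains at Clip2, a microtubule linker gene, with 324, at Vwf, the gene of von Willebrand factor, with 297, beside Krt8, a keratin of simple epithelia, with 291, and beside Cd82, a tetraspanin gene, with 288. The chain beside Krt8 had 3 summits of 284 to 332 and a last one of 20.3, which had 10.2 in replicate 1 and 8.22 in replicate 2 and was not among the strongest peaks of both. The Vwf chain likewise had 3 summits of 297 to 364 and 2 of 41.4 and 39.2. A high median thus did not mean that all summits were strong, except in the Fbln2 chain, whose weakest summit had 282.

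After the Igha chain, the largest chains with at least 4 motifs on 1 strand alone were at Abhd11, a gene for a mitochondrial hydrolase, with 6 forward motifs in 6 summits, and at Scx and Bop1, with 4 forward motifs in 6 summits. Scx encodes scleraxis, the transcription factor of tendon progenitors, and lies inside Bop1, a gene of ribosome biogenesis. The summit 50 bp from the start of Scx had a signal of 31.8, and the strong summits of that chain, 299.7 and 173, were in introns of Bop1. The shortest chain, 1232 bp at the promoter of Rhpn2, had signals of 41.2, 30.9, 15.7 and 5.36, and none of its 4 summits was among the strongest peaks of both replicates.

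Peaks in chains had a higher signal than single peaks. The median pooled signal was 64.9 in chains of 4 or more (quartiles 31.4 and 165), 61.5 in chains of 3, 61.8 in chains of 2 and 56.2 in single peaks (quartiles 29.3 and 136). In replicate 1 the medians were 34.8 in chains and 29.4 in single peaks, and in replicate 2 they were 33.1 in chains and 27.6 in single peaks. These medians leave out unmatched peaks. They cover 2881 of 2945 chain peaks and 29415 of 29676 single peaks in replicate 1, and 2867 and 29424 in replicate 2. The log2 ratio of chain over single medians was 0.25 ± 0.013 (mean ± SD, n = 2 replicates) and 0.21 in the pooled list. The ranges of the groups overlapped almost completely. Peaks are not replicates and both libraries came from 1 pool, so no p-value was computed for this or any other comparison. The spread over replicates and the direction on each chromosome are given as description and do not take the place of a test. The chain median was higher on 15 of 19 chromosomes and lower on chromosomes 6, 14, 16 and 18.

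**Figure D2:**
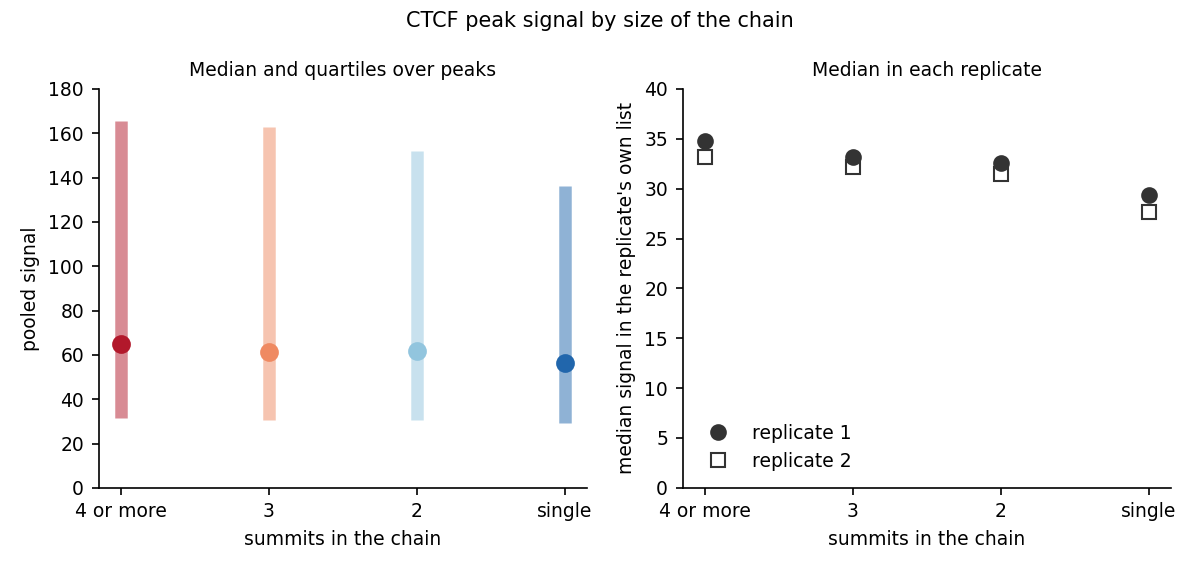
CTCF peak signal (vertical axes) by the number of summits in the chain (horizontal axes). Left, points are medians and bars the quartiles of pooled signal over peaks. Right, medians in each replicate's own list, filled circles for replicate 1 and open squares for replicate 2. Chains of 4 or more have the highest and single peaks the lowest median in both replicates.

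The difference was larger among peaks with a motif and among intergenic and intronic peaks. Among peaks with a motif, the median pooled signal was 83.1 in chains and 66.6 in single peaks, and among peaks without one it was 29.2 in chains and 28.4 in single peaks. Intergenic peaks had 85.1 in chains and 63.7 as single peaks, and intronic peaks 62.0 in chains and 51.9 as single peaks. Intergenic peaks had 81.3 in chains of 3 and 80.1 in chains of 2, and intronic peaks 62.0 and 58.5. These differences were thus not particular to the larger chains. Peaks within 1 kb of a TSS had 52.3 in chains and 53.8 as single peaks, and exonic peaks 54.0 in chains and 62.0 as single peaks. The direction thus turned at exons and promoters. Promoter peaks had 28.2 in chains and 28.9 as single peaks in replicate 1, and 28.6 in chains and 26.6 as single peaks in replicate 2, so the replicates did not have the same direction there. Promoter peaks with a motif had 74.1 in chains and 72.3 as single peaks.

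Within a chain the summits were far from equal. In the 427 chains of exactly 4, the strongest summit had a median signal of 233, the next 96.6, the third 47.7 and the weakest 24.7. In 7412 runs of 4 consecutive single peaks, taken as a measure of how unequal any 4 peaks are, the medians were 186, 83.0, 41.0 and 24.2. The strongest summit held a median of 48.6% of the summed signal in chains of 4 and 48.2% in the runs of single peaks. The strong members of chains were thus higher than those of runs, while the weakest differed by little. The strongest summit was the first or last of its chain in 301 of 652 chains (46.2%), and 44.3% of chain summits are first or last. Over 2293 neighbouring pairs in chains, the signals of neighbours had a Spearman rho of 0.108 across pairs, and 0.045 over 23594 pairs of neighbouring single peaks, both weak. Pairs that share a summit are not independent.

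**Figure D3:**
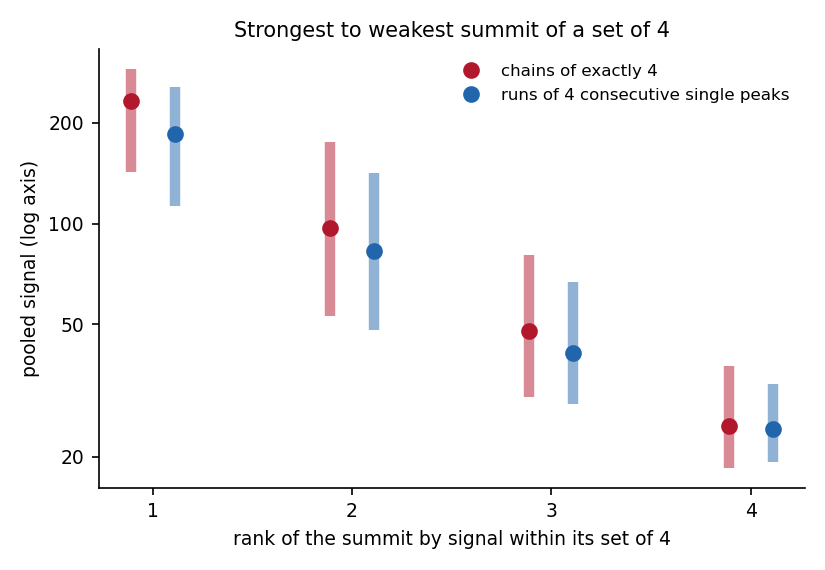
Pooled signal (vertical log axis) of the strongest to the weakest summit (horizontal axis, ranks 1 to 4) in 427 chains of exactly 4 summits (red, left) and in 7412 runs of 4 consecutive single peaks (blue, right). Points are medians and bars quartiles. The medians of chains are higher at ranks 1 to 3, and at rank 4 they are 24.7 in chains and 24.2 in runs.

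Chains lay in gene-rich parts of the genome. Around a peak in a chain the median number of protein-coding genes with their first TSS within 100 kb was 4 (mean 4.85), and around a single peak it was 2 (mean 2.78). The median was 4 (quartiles 2 and 7) also when each chain was counted once at its centre. No gene was within 100 kb of 5.77% of chain peaks and 23.0% of single peaks, and over 8 genes were within 100 kb of 17.4% of chain peaks and 5.86% of single peaks. The median number of genes was higher for chain peaks on 17 of 19 chromosomes and equal on 2. Across the 19 chromosomes, chains per 100 Mb ranged from 12.5 on chromosome 3 to 54.9 on chromosome 11. Their Spearman rho with genes per Mb was 0.858, a description over chromosomes that differ in length, base composition and peak density. Peaks per Mb were 15.3 on chromosome 3 and 30.1 on chromosome 11. As the rule joins more summits where peaks are denser, gene density and peak density cannot be told apart here.

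Read the other way, 1.90% of peaks with no gene within 100 kb were in chains of 4 or more (170 of 8924), and the share was 5.16% with 1 to 3 genes, 8.39% with 4 to 8 and 12.8% with over 8 (512 of 4007). The signal of chain and single peaks moved differently over these ranges. With no gene nearby, the median pooled signal was 62.0 in chains and 46.4 in single peaks. With 1 to 3 genes it was 66.3 in chains and 57.5 in single peaks, and with 4 to 8 genes 66.3 in chains and 64.1 in single peaks. With over 8 genes it was 56.6 in chains and 64.7 in single peaks, so that the direction was the opposite in the densest regions. Both replicates had these 4 directions, with 30.4 in chains and 33.2 in single peaks in replicate 1, and 28.6 in chains and 31.6 in single peaks in replicate 2, where over 8 genes were near. Chains of 3 had pooled medians of 73.5 with no gene nearby and 57.8 with over 8 genes, and chains of 2 had 51.3 and 65.8. In these ranges chains of 3 thus had the directions of the larger chains, and chains of 2 only with no gene nearby.

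**Figure D4:**
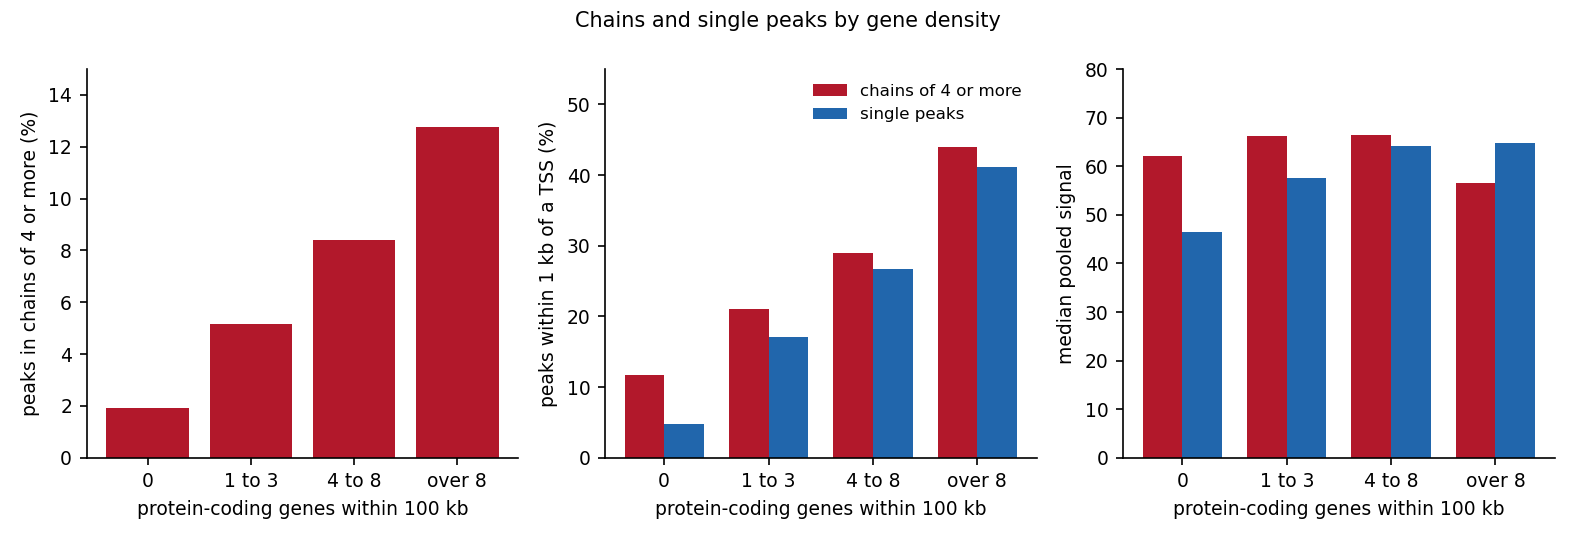
Peaks grouped by the number of protein-coding genes within 100 kb (horizontal axes). Left, percent of peaks in chains of 4 or more; middle, percent of peaks within 1 kb of a TSS; right, median pooled signal, with chains in red on the left and single peaks in blue on the right. The share in chains runs from 1.90% with no gene to 12.8% with over 8 genes, and the order of the signal medians is turned in the last range.

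Promoters were more frequent among peaks of chains of any size than among single peaks. A TSS was within 1 kb of 27.3% of chain peaks (exact 95% binomial interval 25.7 to 29.0) and 17.9% of single peaks (17.4 to 18.3). The share was 28.2% in chains of 3 and 25.1% in chains of 2, so it was not particular to the larger chains. These intervals treat peaks as independent, which they are not, and cover counting error only. The chain share was higher on 18 of 19 chromosomes. Exons held 7.74% of chain peaks and 4.80% of single peaks, introns 30.6% of chain peaks and 41.4% of single peaks, and intergenic sequence 34.4% of chain peaks and 36.0% of single peaks. Within ranges of gene density the promoter shares were closer in percentage points. With over 8 genes near they were 43.9% of chain peaks and 41.1% of single peaks. With 4 to 8 genes they were 28.9% of chain peaks and 26.7% of single peaks, and with 1 to 3 genes 21.0% and 17.1%. Where there was none they were 11.8% of chain peaks and 4.78% of single peaks, a larger ratio than over all peaks. Of the chains, 393 (60.3%) had a promoter summit and 248 had more than 1, while 122 were intergenic throughout. A protein-coding gene overlapped 472 chains (72.4%), 172 lay inside a single gene, and 595 genes were overlapped in all.

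The sequence at chain summits was richer in G and C. The median GC content of the 201 bp around the summit was 52.7% in chain peaks and 48.8% in single peaks, and it was higher for chains on all 19 chromosomes. The median GC content was 51.7% in chains of 3 and 50.7% in chains of 2. The median number of CpG pairs in those windows was 4 in chain peaks, 3 in chains of 3, 3 in chains of 2 and 2 in single peaks. The higher values were thus not particular to the larger chains. GC content also differed within classes, with 50.5% in intergenic chain peaks and 47.3% in intergenic single peaks. Repeat-masked sequence held 17.3% of chain summits and 17.5% of single summits, within the counting error of each other.

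Fewer chain peaks carried a CTCF motif, whose matrix was refined on single peaks and whose threshold is the score that 5% of windows 1 kb away reach. A motif lay within 50 bp of the summit in 81.9% of chain peaks (80.5 to 83.3) and 85.6% of single peaks (85.2 to 86.0). The chain share was lower on 18 of 19 chromosomes, and on the even-numbered chromosomes, which gave no sequence to the matrix, it was 80.2% and that of single peaks 85.5%. Chains of 3 had a motif in 82.5% of peaks and chains of 2 in 83.5%. In the strongest 50% of the list, chained anew, the direction turned, with a difference of chain minus single peaks of 0.707 percentage points. Promoter peaks had the fewest motifs, in 67.6% of chain peaks and 71.9% of single peaks. In intergenic sequence the shares were 87.7% of chain peaks and 89.9% of single peaks, and in exons 82.0% and 85.3%. In introns the chain share was not lower, at 88.1% of chain peaks and 87.9% of single peaks. No chain was without a motif, and in 303 chains every summit had one.

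Motifs on the same strand were about as frequent among neighbours in chains as among distant neighbours, while convergent pairs were fewer in chains. Of 1569 neighbouring pairs in chains that both carried a motif, 54.0% were in tandem, on the same strand (51.5 to 56.5), and of 17372 neighbouring single pairs 53.4% (52.7 to 54.2), at median distances of 2171 bp in chains and 30255.5 bp between single peaks. The opposed pairs of chains were 25.7% divergent, pointing apart (23.6 to 28.0), and 20.2% convergent (18.2 to 22.3). Those of single neighbours were 23.4% divergent (22.8 to 24.1) and 23.1% convergent (22.5 to 23.8). Along an unbroken row of motifs, divergent and convergent pairs alternate. Chains of 3 had 25.4% divergent and 19.7% convergent pairs, and chains of 2 had 25.1% divergent and 19.7% convergent pairs, so the smaller share of convergent pairs was there at every size. Over distance, the tandem share in chains of 4 or more was 49.2% at 500 bp to 1 kb, 58.7% at 1 to 2 kb and 53.0% at 3.5 to 5 kb, with intervals that overlap.

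Chains with all motifs on 1 strand were few. Of 398 chains with at least 4 motifs, 52 (13.1%) had them on 1 strand. In sets of exactly 4 summits that all carried motifs, the share was 16.5% of 218 chains and 14.4% of 4039 runs of single peaks. Motifs lay on both strands in 501 chains. In all, 1226 chain motifs were on the forward and 1186 on the reverse strand of the genome.

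Neighbouring summits of a chain seldom had like sequence. In windows of 301 bp more than 400 bp apart, at least 1 word of 16 bases was shared by 46 of 2195 neighbouring pairs in chains (2.10%, 1.54 to 2.79) and by 296 of 23594 pairs of neighbouring single peaks (1.25%, 1.12 to 1.40), and 32 of the 46 had a summit in a repeat. At least 20 words were shared by 3 pairs in chains (0.137%) and 73 single pairs (0.309%). The most alike pair in a chain was in an intron of 1110017D15Rik on chromosome 4, at 41505440 and 41506366, with 78.9% identity over 294 bp and pooled signals of 19.5 and 72.2. The sequence beside the motif was about as alike as elsewhere, with a median identity of 26.3% over 1723 pairs of motif-bearing neighbours in chains and 26.3% over 19703 single pairs. Identity reached 45% in 1.74% of the pairs in chains (1.18 to 2.48) and in 1.49% of the single pairs (1.33 to 1.67).

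Most chain peaks had a matching summit in both replicate lists, except for summits very close to another. The replicate lists went into the making of the optimal list, so such matches were partly set in advance and are no independent check. Of chain peaks, 81.6% were among the strongest peaks of both replicates, and of single peaks 81.0%. In the full replicate lists of 300000 peaks, 2811 of 2945 chain peaks (95.4%) and 29170 of 29676 single peaks (98.3%) had a summit in both. The 121 chain peaks with another summit under 300 bp away were matched in both full lists in 47.9% of cases and had a median pooled signal of 17.9. At 300 bp to 1 kb the share was 96.5%, and at 1 to 5 kb 97.9%. Where both replicates had the summit, their signals had a Spearman rho of 0.947 over 2811 chain peaks and 0.931 over 29170 single peaks. The conservative list held 87.8% of chain peaks and 87.4% of single peaks.

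**Figure D5:**
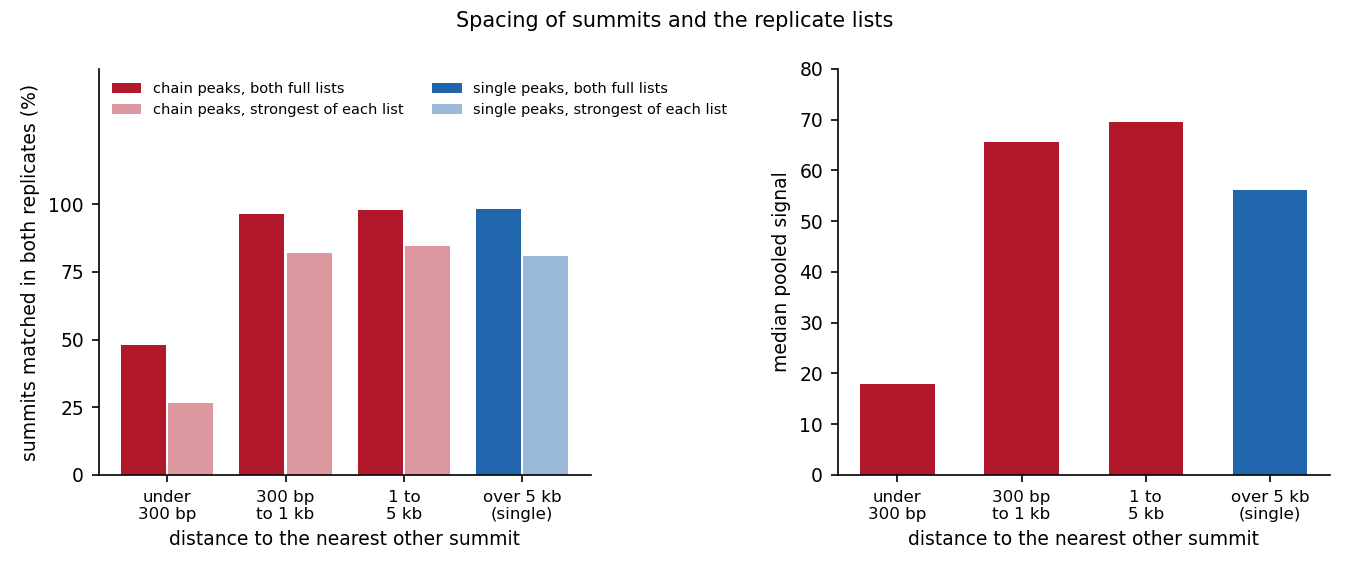
Left, percent of summits matched within 100 bp in both replicates (vertical axis), in the full lists (dark bars) and among the strongest 49970 peaks (pale bars), by distance to the nearest other summit (horizontal axis). Right, median pooled signal of the same peaks. Chain peaks are red and single peaks blue, and chain peaks under 300 bp from another summit have the lowest bars, at 47.9% and 26.4%, and a median signal of 17.9.

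In 283 of 652 chains (43.4%) every summit was among the strongest peaks of both replicates, a share that the 4 or more summits of a chain keep below that of single summits. Chained in the same way, the strongest 49970 peaks of replicate 1 gave 658 chains and those of replicate 2 gave 652. Of the chains of the optimal list, 485 (74.4%) overlapped a chain of replicate 1 and 472 (72.4%) one of replicate 2, and of the replicates' own chains 73.9% in replicate 1 and 72.4% in replicate 2 overlapped a chain of the optimal list. At least 1 peak below the median signal of the list, 58.6, was part of 594 chains (91.1%). Of chain peaks 47.4% were below it, and of single peaks 51.2%. At such shares, most sets of 4 or more summits would hold 1.

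Chain summits at the promoters of the listed genes were few in number, as they were over all genes. The background was 2.03% of the 20807 protein-coding genes of chromosomes 1 to 19. In 422 of them a chain summit lay within 1 kb of the TSS of any of their annotated transcripts. No gene of the Hox list had one (0 of 39), and 7 of the 39 had any CTCF summit of the optimal list there, where 7173 of the 20807 genes had one (34.5%). Of 38 cartilage and bone genes there were 2 (5.26%), and of 36 skeletal muscle genes none. At the background share, lists of this size would hold about 1 gene or none, so these counts say little about any list. Within 5 kb there were 4 cartilage and bone genes, 2 skeletal muscle genes and no Hox gene, and 608 of all genes (2.92%).

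The chain at Col1a1, which encodes the alpha 1 chain of type I collagen, lay inside the gene. Its summits had pooled signals of 241, 239.5, 60.2 and 21.2. The first 2 were 125 and 119.9 in replicate 1 and 121 and 119.8 in replicate 2, with motifs on opposite strands. At Hapln1, the link protein that ties hyaluronan to aggrecan in cartilage, a chain of 7 summits began 485 bp from the start of the gene and ran into it. The promoter summit had 58.8, and the strongest, 229, lay in an intron. In both genes the chain held at least 1 summit above 136, the upper quartile of single peaks. Most chains did, as the strongest summit in chains of exactly 4 had a lower quartile of 143.

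Of 56 clustered protocadherin genes, which encode cell surface proteins each with a promoter of its own, 8 (14.3%) had a chain summit at the promoter. The share over all genes was 2.03%. Any CTCF summit of the optimal list was at the promoter of 31 of the 56, beside 34.5% of all genes. The 8 lay in 2 chains of 4 on chromosome 18, in the gamma cluster, where these promoters follow each other at less than 5 kb. The first chain had signals of 40.1 at Pcdhgb1, 33.6 at Pcdhga4, 27.3 at Pcdhgb2 and 24.9 at Pcdhga5. The second had 93.0 at Pcdhgb6, 29.1 at Pcdhga10, 87.9 at Pcdhgb7 and 45.2 at Pcdhga11. The summits were 27 to 78 bp from the starts, and 1 in each chain reached the motif threshold. As these 8 genes share 2 chains, they are not 8 separate observations.

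Of 48 imprinted genes, Peg3 and its neighbour Usp29 had a chain summit, the same one, with a pooled signal of 17.6, 9.27 in replicate 2 and no match in replicate 1. The chain ran 2933 bp from there into Peg3, with stronger summits of 34.7, 48.9 and 37.2. Of 28 housekeeping genes 3 did, at Rpl13a, a ribosomal protein gene, with 219, Tubb5, a tubulin gene, with 185 and Eef2 with 46.9. These shares, 4.17% of the imprinted and 10.7% of the housekeeping genes, stand beside 2.03% of all genes. The Tubb5 summit lay 1939 bp and the Eef2 summit 3062 bp downstream of the first TSS of the gene. Both were counted for the TSS of another annotated transcript. No chain summit was at a promoter of 21 genes of cohesin and CTCF machinery, 27 neuronal, 28 liver or 28 blood genes. Any CTCF summit of the optimal list was there in 12 of the 21 cohesin and CTCF genes, 7 of the 27 neuronal, 4 of the 28 liver and 9 of the 28 blood genes, beside 34.5% of all genes. It was there in 21 of the 48 imprinted and 11 of the 28 housekeeping genes.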

How the data were processed

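CTCF peaks of 2 limb libraries at embryonic day 14.5 were analysed from the deposited lists in mm10 coordinates. Per the deposited notes, the optimal and conservative lists were made from the pooled list, the list of each replicate and 1 more file. No source used here gives the aligner, peak caller, control or threshold. The deposited signal of a peak has no stated normalization, and the deposited −log10 q-value was not used. Read depth is unknown, so the precision of single peaks cannot be given. The pooled and replicate lists hold 300000 peaks each, the conservative list 48829.

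Members, gene lists and named items (the 12 largest chains, the 5 of highest median signal, the 3 largest with motifs on 1 strand, the longest and shortest, and up to 4 genes per list) were chosen with earlier results of these data known. The 12 largest chains were taken by number of summits, with ties broken by the larger summed pooled signal. Sequence came from GRCm38.p6 and genes from GENCODE M21. No peak passed a chromosome end. A peak took its replicate signal from the closest summit, at most 100 bp away, of that replicate's full list. The motif matrix of 20 bp was refined in 10 rounds on the strongest 1000 single peaks of odd-numbered autosomes. Steps were tested on simulated data with Python 3.11.15, NumPy 2.4.6 and SciPy 1.17.1. Alternatives were other gaps, chain sizes, lists, distances and thresholds. The result of 1 gene list is not reported here.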

Additional observations from a re-analysis of the deposited data

How the results depend on the processing

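Against 652 chains with 6.03% of peaks, a gap of 2.5 kb gave 173 chains (1.54%), a gap of 10 kb 1751 (17.7%), chains of 3 or more 2187 (15.5%), chains of 6 or more 77 (1.02%) and the strongest 50% of the list 104 (1.82%). Joining summits within 300 bp left 5.77% of peaks in chains. The log2 ratio of signal, 0.21, was 0.16 with 2.5 kb, 0.16 with chains of 3, 0.27 with chains of 6, 0.18 in the conservative list, 0.16 in the strongest 50% and 0.27 with near summits joined.

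The promoter share of chain minus single peaks, 9.46 percentage points, was 16.5 with 2.5 kb, 8.85 with 10 kb, 9.98 with chains of 3, 8.29 with chains of 6, 10.4 in the conservative list, 4.30 in the strongest 50%, 8.49 with near summits joined, 5.60 within 500 bp and 23.0 within 5 kb. The gene difference of 2 was 1 with chains of 3 or a 50 kb window and 4 with 250 kb. The GC difference, 3.98 points, was 5.47 with 2.5 kb, 3.48 with chains of 3, 5.97 with chains of 6, 4.48 in the conservative list and 4.98 in the strongest 50%.

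The motif difference, -3.73 points, was -8.58 with 2.5 kb, -2.0 with 10 kb, -3.39 with chains of 3, -5.75 with chains of 6, -4.32 in the conservative list, -2.21 with near summits joined and -4.94 at the stricter score, and turned to 0.707 in the strongest 50%. The tandem difference, 0.605 points, turned to -5.84 with chains of 6 and -0.0315 in the conservative list, and was 7.85 in the strongest 50% and 1.76 at the stricter score. The difference found in both replicates, 0.564 points, turned to -2.30 with 2.5 kb and -1.72 in the conservative list, and was 2.87 with near summits joined. The repeat difference, -0.236, turned to 1.72 with 10 kb. The cause of these turns was not tested.

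Leaving out 1 replicate gave 652 to 658 chains, 6.03 to 6.15% of peaks, log2 ratios of 0.22 to 0.26, promoter differences of 10.3 to 10.4, gene differences of 2, motif differences of -3.96 to -3.69, tandem differences of 1.18 to 1.86 and GC differences of 4.48. With a promoter of 5 kb, 608 genes had a chain summit. No paired analysis was possible because there is 1 group. Limits are the unknown depth, the single pool, and gaps near the width of a peak.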

Other observations

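The rule leaves out the X chromosome, where 38 of 1153 peaks (3.30%) formed 6 chains of 4 or more. The median pooled signal on X was 46.9 in these chain peaks and 52.2 in single peaks, the opposite order to that over the autosomes. Of these, 2 lay in Firre, a gene for a long noncoding RNA with a repeated RNA domain, known as a strong CTCF site on X. The larger had 14 summits over 26007 bp, more than any chain of the autosomes, with pooled signals of 7.06 to 82.2 and a median of 55.1, 31.3 in replicate 1 and 28.2 in replicate 2. Of its 12 motifs 8 were on the reverse and 4 on the forward strand. The other had 7 summits with a median signal of 65.0 and 7 motifs, 6 of them on the reverse strand, and all 7 were among the strongest peaks of both replicates. A chain of 5 summits at Gm21887 had 5 motifs, all on the reverse strand, and a median signal of 123. The remaining 3 chains, of 4 summits each, lay at Fgf13, Flna and Pcdh11x and had median signals of 26.3, 34.6 and 27.4. No optimal peak lay on the Y chromosome.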
